A study of Mus musculus with 106 samples.

Results

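The regions described are stretches of mouse chromatin that lie away from protein-coding promoters and that carried strong H3K27ac peaks in bone marrow-derived macrophages (BMDM) but hardly ever in bone marrow progenitors. H3K27ac is acetylation of lysine 27 of histone H3. To find them, the 30000 strongest peaks of each of 35 H3K27ac lists were ranked by the deposited −log10 p and merged over lists into 124088 regions of the GRCm38 genome. Of these, 88465 had no start site of a protein-coding gene within 2.5 kb and are called distal. A distal region was kept when it overlapped a strong peak in at least 18 of 23 BMDM lists and in at most 1 of 12 lists of hematopoietic stem cells (HSC). This gave 578 BMDM distal regions. The regions were thus chosen by the ranks of their H3K27ac peaks, so their H3K27ac level in BMDM against HSC is given as a description with no test.

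All mice were C57BL/6J, aged 12 to 14 weeks. Controls were compared with mice made diabetic by streptozotocin, a toxin of pancreatic β-cells, at 42 to 45 mg/kg per day for 5 days; marrow was collected after 6 further weeks if blood glucose exceeded 13.9 mmol/L. BMDM of both disease groups were grown for 7 days with medium conditioned by L929 cells, in 5 mmol/L glucose. They were then left in medium only (unstimulated) or given 100 ng/mL lipopolysaccharide (LPS) plus 10 ng/mL interferon-γ (IFN-γ). The paper's general BMDM protocol gives 16 hours for this step, and its ChIP-seq methods state no time. HSC here means bone marrow from which cells bearing CD3, CD4, B220, Ter119 or Gr1 had been removed, an enriched and not a pure stem cell fraction. Each mark had 6 libraries per group, except 5 in unstimulated diabetic BMDM, where replicate 3 is absent, so H3K27ac and H3K4me3 (trimethylation of lysine 4 of histone H3) were each read in 23 BMDM and 12 HSC libraries.

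Distal stretches with H3K27ac are often active enhancers, which bind transcription factors and raise transcription of genes at a distance, whereas H3K4me3 is above all a mark of active promoters. In macrophages, the lineage factor PU.1 opens many enhancers together with partners such as C/EBP and AP-1 factors, and RUNX1 acts earlier in blood formation. LPS, sensed by Toll-like receptor 4, and IFN-γ act through NF-κB, AP-1, IRF and STAT factors, which bind existing enhancers and activate latent ones.

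Sequences of 5 of the regions are shown, as the 300 bases at the midpoint of the region on the plus strand of GRCm38. Those near Sash1 and A1cf are among the regions ranked highest in BMDM, those near Zeb2 and Lrp1 lie by a macrophage transcription factor and a lipoprotein receptor, and that near Ctss had the lowest p in the H3K4me3 comparison of cell types. Capitals mark letters that match a motif on either strand: RUNX and GATA in Sash1, C/EBP and GATA in A1cf, PU.1/ETS in Zeb2 and Lrp1, and no match in Ctss. The strings searched were GAGGAAGT (PU.1/ETS), TGANTCA (AP-1), TTGCNNAA (C/EBP), TCACGTGA (MITF/TFE), TGTGGTT (RUNX), TTCCNGGAA (STAT) and AGATAA (bound by GATA factors), where N is any base, besides an IRF and an NF-κB string; both strands were read, matches of different motifs may overlap, and a match is no evidence of binding.
Sash1, chr10:8880930-8881229: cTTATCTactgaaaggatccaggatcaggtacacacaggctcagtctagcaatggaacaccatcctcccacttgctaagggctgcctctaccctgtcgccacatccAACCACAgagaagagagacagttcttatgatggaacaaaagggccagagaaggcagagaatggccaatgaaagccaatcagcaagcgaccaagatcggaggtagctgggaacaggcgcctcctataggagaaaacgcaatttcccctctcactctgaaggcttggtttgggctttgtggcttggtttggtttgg
A1cf, chr19:31913436-31913735: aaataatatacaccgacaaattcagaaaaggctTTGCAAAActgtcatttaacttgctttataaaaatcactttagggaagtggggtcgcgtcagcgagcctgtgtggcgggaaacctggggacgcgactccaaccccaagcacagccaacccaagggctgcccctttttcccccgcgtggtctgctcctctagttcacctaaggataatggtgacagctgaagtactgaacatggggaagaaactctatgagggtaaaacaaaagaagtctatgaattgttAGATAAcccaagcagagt
Zeb2, chr2:45196583-45196882: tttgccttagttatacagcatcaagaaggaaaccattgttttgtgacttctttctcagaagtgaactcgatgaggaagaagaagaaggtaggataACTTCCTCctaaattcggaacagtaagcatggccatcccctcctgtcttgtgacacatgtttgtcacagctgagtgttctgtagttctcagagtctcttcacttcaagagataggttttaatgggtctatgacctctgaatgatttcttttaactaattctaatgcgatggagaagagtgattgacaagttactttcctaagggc
Lrp1, chr10:127588092-127588391: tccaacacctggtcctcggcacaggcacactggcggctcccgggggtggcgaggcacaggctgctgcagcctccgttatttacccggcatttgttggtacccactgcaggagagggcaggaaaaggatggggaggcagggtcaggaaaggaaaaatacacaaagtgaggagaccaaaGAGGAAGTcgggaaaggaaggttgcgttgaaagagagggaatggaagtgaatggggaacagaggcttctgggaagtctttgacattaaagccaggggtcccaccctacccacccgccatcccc
Ctss, chr3:95530129-95530428: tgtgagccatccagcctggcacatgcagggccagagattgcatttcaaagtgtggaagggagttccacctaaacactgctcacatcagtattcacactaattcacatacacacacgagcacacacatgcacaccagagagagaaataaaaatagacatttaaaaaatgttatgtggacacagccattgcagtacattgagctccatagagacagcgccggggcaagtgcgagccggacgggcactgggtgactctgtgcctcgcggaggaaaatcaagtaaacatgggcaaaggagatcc

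The level used for every region is a percentile: the percent of the 124088 regions ranked below it within the same library by the −log10 p of its strongest peak, with 0 where the library listed no peak. Lists held 51162 to 176559 peaks for H3K27ac and 13730 to 277213 for H3K4me3; they carry no read counts, so sequencing depth is unknown. An earlier look at these data had found 3 control libraries at odds with their stimulation labels: library 5 of LPS+IFN-γ BMDM and libraries 5 and 6 of unstimulated BMDM. This was examined with 209 regions higher and 48 lower after LPS+IFN-γ in diabetic BMDM, none of them among the 578. The mean H3K27ac percentile of the higher minus that of the lower regions was 25.2 to 53.4 points in the other 5 stimulated control libraries but −12.8 in library 5. In unstimulated controls it was 38.2 in library 5 and 15.7 in library 6, against −19.5 to 15.5 in the other 4, so the libraries numbered 5 stood apart and library 6 lay next to library 1. The same difference in H3K4me3 was −39.4 in stimulated library 5, against −34.1 to −11.4 in the other 5 stimulated controls. It was −38.2 and −33.4 in unstimulated libraries 5 and 6, against −44.7 to −4.06 in the other 4. The control groups overlapped, so H3K4me3 did not decide on these labels. All are kept under their labels, and H3K4me3 fits without them leave out the H3K4me3 libraries of the same groups and numbers. Values without them are given where a call or a direction among the 578 regions changed.

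H3K27ac filled the 578 regions in every BMDM group and ranked low in HSC, as the rule required. In unstimulated control BMDM, 85.7% ± 9.23 (SD, n = 6) of the regions overlapped a peak among the 30000 strongest, from 68.3% to 94.8%, and in unstimulated diabetic BMDM 80.7% ± 8.36 (n = 5), from 68.7% to 89.8%. After LPS+IFN-γ the share was 91.7% ± 4.70 in control and 90.8% ± 3.98 in diabetic BMDM (n = 6 each). In HSC it was 3.81% ± 2.22 in control and 3.23% ± 0.887 in diabetic mice. The 4 BMDM groups overlapped each other, and no BMDM library came near the HSC libraries.

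The regions were not empty in HSC. When every deposited peak counted, 60.1% ± 9.51 of them held a peak in control HSC libraries and 44.8% ± 22.6 in diabetic ones, from 10.6% to 70.8%, against 96.5% to 99.5% as group means in BMDM. Only 15 of the 578 had no peak at all in the 12 HSC lists, 356 had one in 6 lists or more and 7 in all 12. The median over regions was 7 HSC lists, so what sets the regions apart is the rank of the peak within its list. In BMDM, 393 regions held a deposited peak in all 23 lists.

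**Figure D1:**
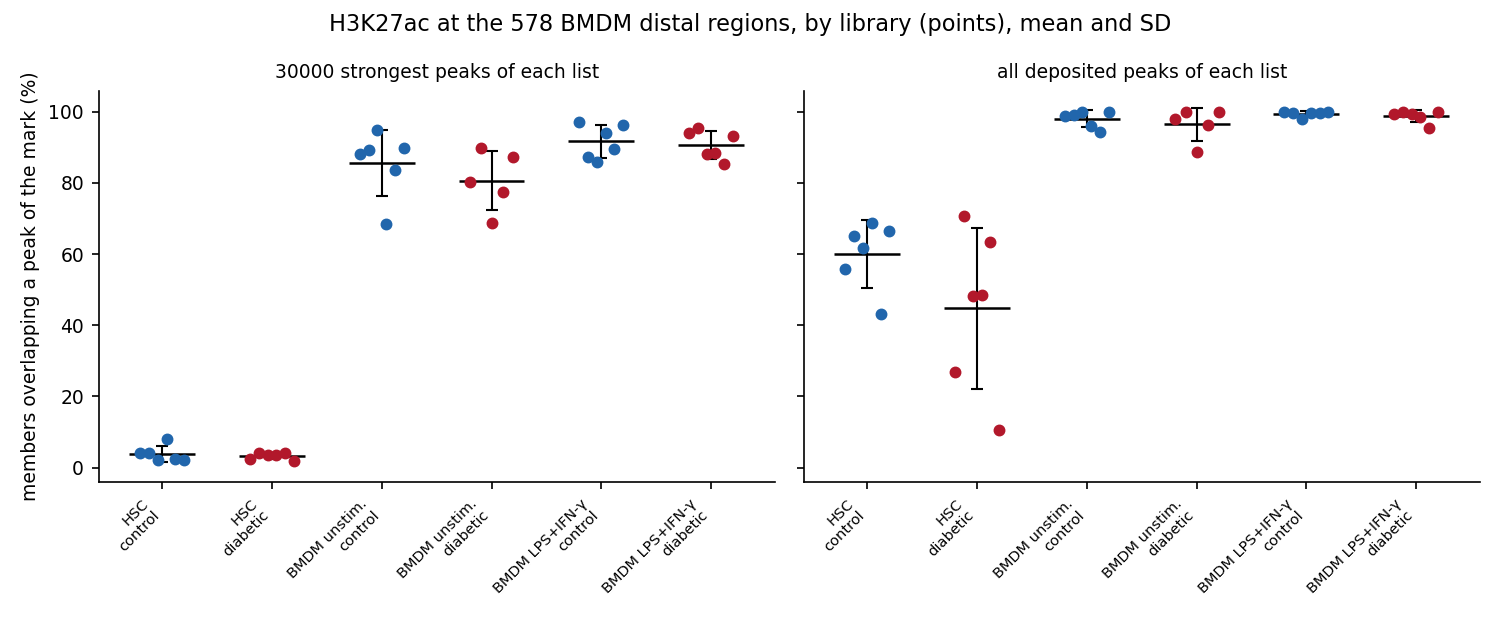
Percent of the 578 BMDM distal regions that overlap an H3K27ac peak in each library (points; blue control, red diabetic), with mean and SD per group, for the 30000 strongest peaks (left) and all deposited peaks (right). With the strongest peaks the 12 HSC libraries lie between 1.90% and 7.96% and the 23 BMDM libraries between 68.3% and 97.1%; with all peaks the HSC libraries reach 70.8%.

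The regions fell short of the maximum in graded steps. Of the 578, 74 were held by all 23 BMDM lists, 67 by 22, 83 by 21, 108 by 20, 124 by 19 and 122 by 18; 334 were held by 0 HSC lists and 244 by 1. The median percentile over BMDM libraries ran from 81.1 to 98.4 with a median of 88.7, and that over HSC libraries from 0 to 75.1 with a median of 49.2. At the edge of the rule, the 122 regions with 18 lists had a median BMDM percentile of 86.5, and 143 regions just outside, with 17 lists, had 85.7. On the HSC side, the 244 regions with 1 list had a median HSC percentile of 58.4, and 188 regions with 2 lists had 66.0. A further 229 regions passed both counts but had a protein-coding start site within 2.5 kb, the nearest excluded distance being 2500 bp and the shortest kept 2515 bp.

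Of 44 regions held by 23 BMDM and 0 HSC lists, the highest median BMDM percentile was 95.8, at chr10:8880287-8881873 in an intron of Sash1, which encodes a signaling scaffold. Its percentiles in unstimulated diabetic BMDM were 94.3, 96.7, 94.8, 93.5 and 94.3, and in unstimulated controls the lowest, median and highest were 91.3, 96.3 and 98.3. In HSC, 8 of 12 libraries had no peak there and the highest value was 70.5, so BMDM and HSC values did not overlap. This is a description only, since the region was picked for its 23 BMDM and 0 HSC lists. The next in rank lay in introns of Cdca7l (a MYC-interacting nuclear protein; 95.5), Apbb2 (an adaptor that binds the amyloid precursor protein; 95.1) and A1cf (a cofactor of apolipoprotein B mRNA editing; 94.6). The other 6 were nearest to Gm21188 (94.4), St3gal5 (ganglioside GM3 synthase; 94.2), Anxa4 (a phospholipid-binding annexin; 94.0), Plxna1 (a semaphorin receptor; 94.0), Vmp1 (needed to form autophagosomes; 94.0) and Igf2r (93.9), the receptor that carries enzymes to lysosomes. At Igf2r the region lay 2760 bp from the start site, and HSC percentiles reached 74.1, although 6 of 12 HSC libraries had no peak.

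Some of the regions are not unique sequence, which matters because reads from a copy elsewhere cannot be placed. In the central 500 bases of each region, runs of 31 bases were looked up in the 21 chromosomes. In 32 regions (5.54%) 50% or more of the runs occurred more than once, against 11.9% of other distal regions. The Gm21188 region was repeated in full and shared 356 runs with transcripts of Ctdsp1 on chromosome 1, so its signal cannot be assigned to either place. In the Cdca7l region 58.1% of runs were repeated, and in the St3gal5 region 83.2%, with 1 run found 1541 times. Of the sequences shown above, Sash1, Zeb2 and Lrp1 had no repeated run, A1cf had 11.5% and Ctss 29.6%, with up to 62 copies of 1 run.

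The regions were wide. The median width was 1839 bp (quartiles 1162.5 and 3100.5), from 521 to 15898 bp, against 557 bp in the other 87887 distal regions. For comparison, 967 shared regions, held by at least 33 of all 35 lists, were 2188 bp wide at the median, and 504 HSC distal regions, held by at least 10 HSC and at most 2 BMDM lists, 1749.5 bp. Merging widens a region as more lists hold it, and Spearman's rho between width and number of BMDM lists over the distal regions was 0.614, given as a description. The strongest single BMDM peak in a region was also wider, 678.5 bp at the median against 404.5 bp in other distal and 399.5 bp in HSC distal regions, but it was wider still in shared regions, at 959 bp.

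Most of the regions lay within genes or a short way from them. The midpoint fell in an intron of a protein-coding gene in 299 (51.7%), against 45.7% of other distal, 26.7% of shared and 46.0% of HSC distal regions. It was intergenic in 182 (31.5%), and fell in an intron of another gene in 30, a coding exon in 28, a noncoding exon in 22 and an untranslated exon in 17. The 67 regions with an exonic midpoint (11.6%) compare with 11.8% of other distal regions. An exon was touched somewhere by 183 (31.7%), against 20.2% of other distal and 44.1% of shared regions. Such overlap also depends on width, and the other distal regions were narrower, as given above. The distance to the nearest protein-coding start site was 14748 bp at the median (quartiles 7067 and 35985), with 213 regions under 10 kb, 250 from 10 to 50 kb, 79 from 50 to 100 kb and 36 beyond 100 kb. Those beyond 100 kb were 6.23% of the regions, against 12.5% of other distal regions and 7.54% of HSC distal regions. A start site of a noncoding or other gene lay within 2.5 kb in 72 (12.5%), against 10.2% of other distal, 15.5% of HSC distal and 33.6% of shared regions. The regions were on all 21 chromosomes, most often on chromosome 11 with 57 (9.86%, against 6.94% of distal regions).

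**Figure D2:**
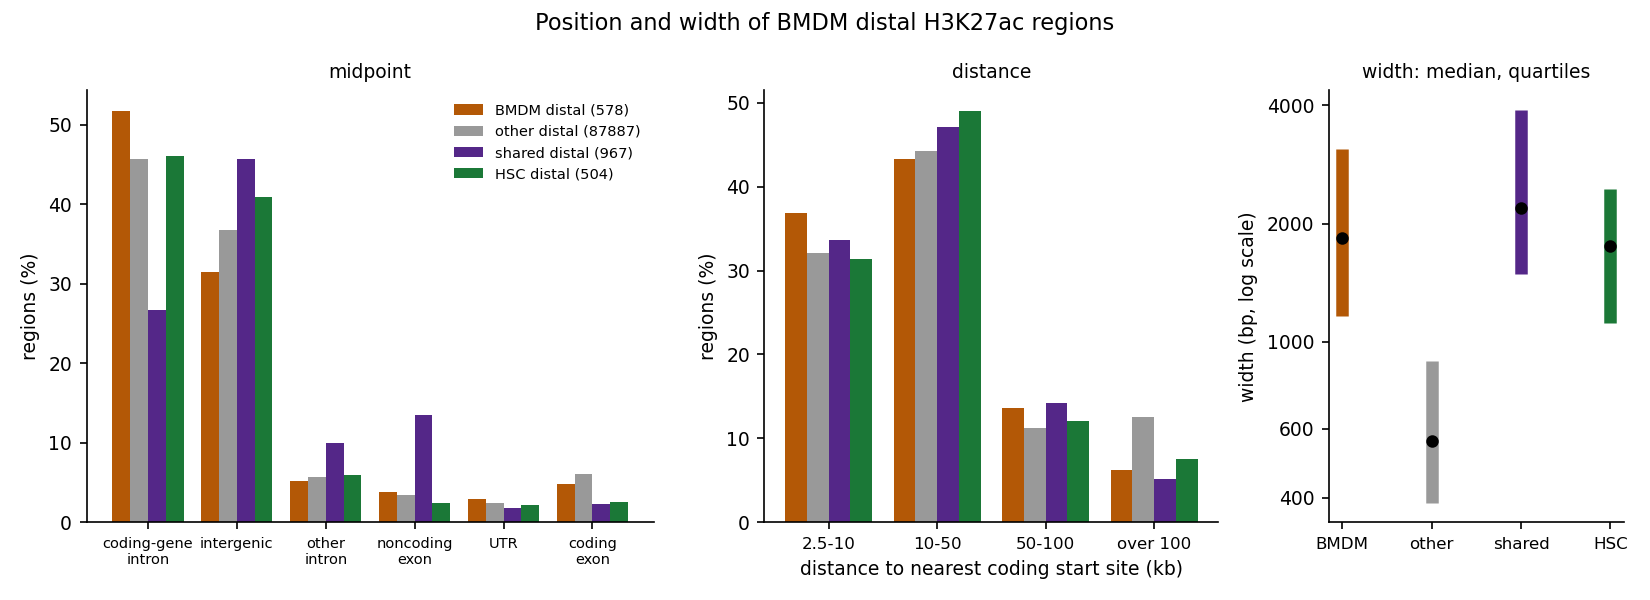
Position of the midpoint (left, % of regions), distance to the nearest protein-coding start site in kb (middle, % of regions) and width in bp on a log scale (right; point median, bar quartiles) for 578 BMDM distal, 87887 other distal, 967 shared and 504 HSC distal regions. BMDM distal regions have the highest share in introns of coding genes (51.7%), and their median width of 1839 bp lies between those of the HSC distal and shared regions.

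Many of the regions had a neighbor of the same kind. With gaps of up to 12.5 kb, 110 regions (19.0%) formed 48 clusters. The cluster with the most members held 5 regions over 41961 bp (chr6:89253771-89295731), 25358 to 57450 bp downstream of the nearest Plxna1 start site, and 3 of them were held by all 23 BMDM lists and by no HSC list. At Runx1, which encodes a factor needed for definitive blood formation, 4 regions spanned 30470 bp (chr16:92605357-92635826) inside the gene, 59669 to 88020 bp downstream of its nearest start site. Their median BMDM percentiles were 88.6, 88.5, 91.5 and 84.6. The last and widest of these, 9990 bp, had a deposited peak in all 12 HSC lists, at a median HSC percentile of 71.0, whereas the region at chr16:92613210-92616419 had one in 4. Other clusters of 4 lay at Arhgap10 (a GTPase-activating protein), between Wnt2b and Cttnbp2nl, and between Banp and Zfpm1.

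Nearest genes were assigned by start site, which is no proof that a region acts on that gene. The 578 regions were nearest to 474 protein-coding genes, 401 of them with 1 region and 73 with more: Plxna1 had 7, Banp (a nuclear matrix protein) and Nav2 (a cytoskeletal navigator protein) 5 each, and Ankrd55, Arhgap10 and Runx1 4 each. Genes differ in how many distal regions they have at all; Nav2 had 104 and Runx1 143, but Gpnmb only 12, of which 3 were BMDM distal regions. Kif1c, a kinesin motor, had 3 of 9, and Lrp1 3 of 10.

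Among 25 macrophage transcription factors, 6 (24%) were nearest to at least 1 of the regions, against 2.16% of the 21911 protein-coding genes. All 25 were nearest to some distal region, as were 14380 of the 21911 genes, 474 of which had at least 1 of the 578. They included Zeb2 (a factor of macrophage identity), Runx1, Rxra (the partner of lipid-sensing nuclear receptors), Batf3 and the stress factor Atf3, with 10 regions in all. Among 30 lysosome and lipid handling genes it was 8 (26.7%), with 13 regions: Ctss (cathepsin S, a lysosomal protease), Lgals3 (galectin-3), Gpnmb (a lysosomal membrane glycoprotein), Abca1 (a cholesterol exporter), Fabp5 (a fatty acid carrier), Grn and Psap (lysosomal proteins) and Lrp1 (an endocytic lipoprotein receptor). By contrast, 2 of 40 macrophage surface genes (5%; Csf1r, the receptor of the growth factor M-CSF, and Clec4n, a lectin) and 2 of 43 inflammatory response genes (4.65%; Tnfaip3, a brake on NF-κB, and Ifngr2, a chain of the IFN-γ receptor) had one. Of the other lineages, 1 of 35 stem and progenitor genes (Zfpm1, a partner of GATA1), 0 of 14 neutrophil granule genes and 1 of 24 lymphoid genes (Cd4) had one. Only 7 of the neutrophil and 16 of the lymphoid genes were nearest to any distal region, so their low counts say little. The lists were drawn up with earlier results of these data known, and the shares are counts without a test.

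Individual regions of these lists are described next by H3K27ac percentiles. The rule chose them by these ranks, so high BMDM and low HSC values are no support for the lists. At Zeb2 the region lay 78403 bp upstream of the start site (chr2:45195798-45197668), with percentiles of 93.9, 91.3, 93.1, 86.7 and 91.9 in unstimulated diabetic BMDM and 75.8, 89.5 and 98.4 (lowest, median, highest) in unstimulated controls. At most 75.8 was reached in HSC, where 5 of 12 libraries had no peak, so the control value at the low end was close to the highest of HSC. The Gpnmb region 6399 bp upstream stood at 90.3, 90.0, 89.1, 82.7 and 85.6 in unstimulated diabetic BMDM, while 11 of 12 HSC libraries had no peak there. The Atf3 region, 7487 bp wide and 33210 bp upstream, was different: control HSC values ran from 58.1 to 89.5, against 84.1 to 96.3 in unstimulated control BMDM, so these groups overlapped. Of the regions by Csf1r, the one 8319 bp upstream was at 89.8, 82.5, 72.2, 87.2 and 87.7 in unstimulated diabetic BMDM, and all 6 control HSC libraries had a peak, up to a percentile of 74.1.

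Motifs were counted in the central 500 bases. AP-1 strings were present in 105 regions (18.2%), against 12.3% of other distal, 13.2% of shared and 13.3% of HSC distal regions. With windows at the median peak summit instead of the midpoint, the AP-1 share was 15.2% against 12.2% of other distal and 14.9% of HSC distal regions, so most of the gap to the HSC set was gone. GATA strings, which factors of stem, erythroid and mast cells bind, were in 14.9% of the regions, against 17.3% of other distal and 27.2% of HSC distal regions; at the summit the shares were 11.2%, 17.2% and 27.8%. Shared regions had fewer still, 12.4% at the midpoint and 9.0% at the summit. C/EBP strings stood at 14.9% against 15.4%, RUNX at 9.34% against 9.45%, and PU.1/ETS at 3.98% against 3.53% of other distal regions. At the summit the C/EBP share was 11.9%, against 15.3% of other distal, 12.9% of shared and 12.7% of HSC distal regions. In HSC distal regions the RUNX and PU.1/ETS shares were 12.9% and 6.55%. IRF (4.15%), STAT (2.08%), NF-κB (0.865%) and MITF/TFE (0.173%) strings were rare. GC content, 51.2% at the median against 52% in other distal regions, differed little. No test was made on these shares.

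**Figure D3:**
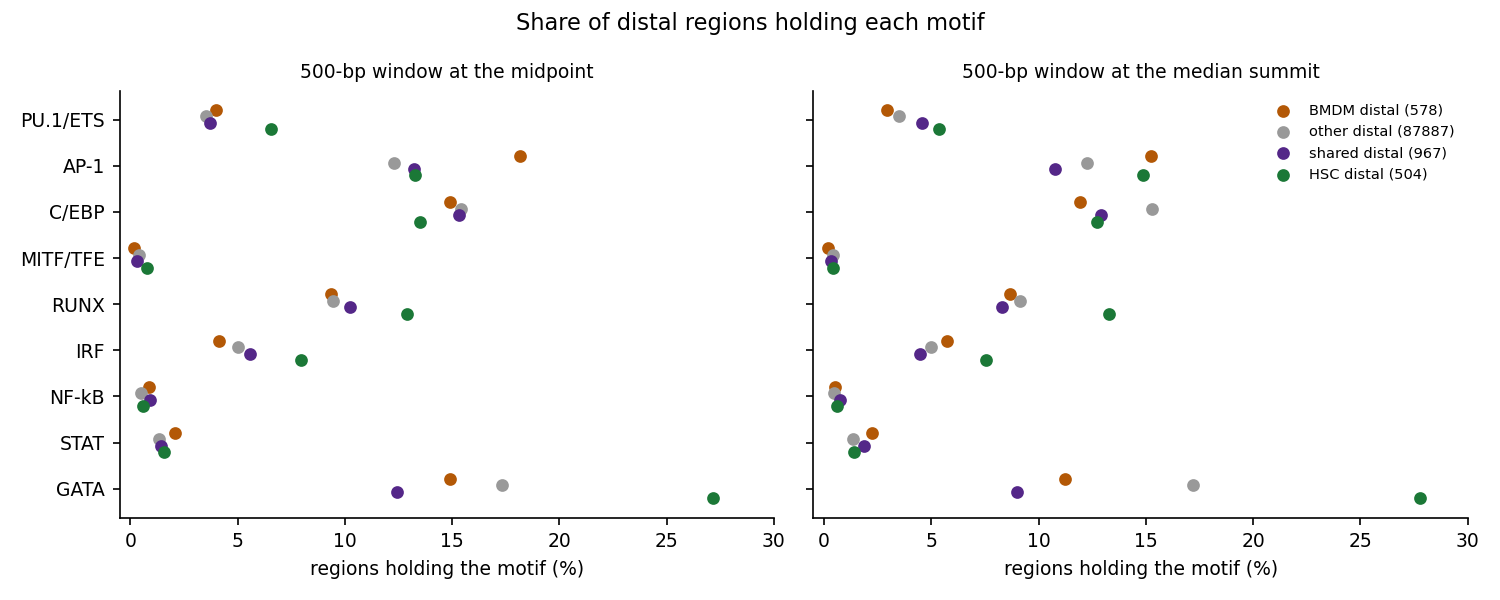
Percent of regions with at least 1 match of each motif in a 500-base window at the midpoint (left) and at the median peak summit (right), for BMDM distal, other distal, shared and HSC distal regions. The BMDM distal regions are highest for AP-1 (18.2% and 15.2%), and the GATA share of HSC distal regions (27.2% and 27.8%) is the highest in either panel.

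The stimulation comparison asked whether LPS+IFN-γ changed the H3K27ac rank of the regions, in control and in diabetic BMDM apart. In neither did a region pass limma's moderated test with Benjamini-Hochberg adjustment (threshold 0.05) over the 77582 regions held by at least 2 lists: 0 of 578 were called in control BMDM, where 0% of all tested regions were, and 0 of 578 in diabetic BMDM, where 0.331% were. At an unadjusted p under 0.05 there were 18 in control BMDM (3.11%, against 3.40% of all tested regions) and 112 in diabetic BMDM (19.4%, against 12.0%). Fisher's exact test on presence among the strongest peaks called none in either, which says nothing about change: presence is what the rule used, and the lowest p this exact test gave with 5 or 6 libraries a group was 0.00216, too high for the adjustment. The rule leaves little room for a change, since a region had to be strong in at least 18 of the 23 lists.

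The differences leaned upward. In diabetic BMDM, 406 of the 578 regions (70.2%) had a higher mean percentile after LPS+IFN-γ, with a median difference of 3.60 points, against 46.6% of all tested regions and a median of −0.09. In control BMDM it was 386 (66.8%) with a median of 1.43 points, against 54.7% and 0.59. Among other distal regions the median was 2.03 points in control and 0 in diabetic BMDM, so the 1.43 points in controls were not particular to the 578. The stimulation difference between disease groups called 0 of 578 (0.00129% of all), with a median of 1.35 points against −0.88 and 25 regions (4.33%) at an unadjusted p under 0.05, against 4.48% of all tested regions. With the log2 number of peaks per list as a covariate the control median was 0.93 points. Without the 3 control libraries set aside, 118 higher and 11 lower regions were called in control BMDM over the genome, 1 of them among the 578, and the median of the 578 was 1.61 points. In diabetic BMDM, whose spread is estimated with the control libraries, 422 higher and 118 lower regions were then called, again with 1 among the 578.

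The lowest p in diabetic BMDM was near Banp, at chr8:122010254-122023450. Its percentiles were 80.7, 79.6, 74.4, 81.6 and 82.8 when unstimulated, and 90.0, 94.4 and 99.7 (lowest, median, highest) after LPS+IFN-γ. These groups did not overlap, and the difference was 15.1 ± 3.58 points (SE; limma adjusted p = 0.0775). In control BMDM the same region ran from 71.4 to 94.0 and from 83.3 to 95.9, which overlap, with a difference of 6.87 points. Regions near Bod1 (a chromosome alignment protein; 15.6 ± 3.72, limma adjusted p = 0.0785) and Peak1 (a pseudokinase of the cytoskeleton; 12.8 ± 3.15, limma adjusted p = 0.0904) followed. The Peak1 region was called with the log2 number of peaks as a covariate (13.1 points, limma adjusted p = 0.0288). These 3 regions, and the next, were chosen after their values were seen.

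The region in an intron of Ubr4, a ubiquitin ligase, depended on the doubtful control libraries (chr4:139440013-139444111). In diabetic BMDM it stood at 89.3, 83.0, 79.5, 71.5 and 80.0 unstimulated and from 94.7 to 99.7 after LPS+IFN-γ, with no overlap. In controls the stimulated values were 98.7, 99.4, 99.4, 97.0, 77.2 and 98.1 and the unstimulated 72.9, 73.4, 85.4, 86.6, 94.2 and 96.6, in order of library number, so that libraries 5 of both groups and library 6 of the unstimulated group lay on the other side. Without these 3, the region was called in control (18.9 points, limma adjusted p = 0.0258) and in diabetic BMDM (16.7 points, limma adjusted p = 0.0127); without the libraries numbered 5 alone it was called in diabetic BMDM (limma adjusted p = 0.0408) and not in control. It was not called with all libraries, and no label was changed.

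The disease comparison asked whether the regions differed between diabetic and control BMDM. Unstimulated, 0 of 578 were called by limma (0.00902% of all tested regions) and 44 (7.61%) had an unadjusted p under 0.05, against 4.17% of all. The median difference was −1.21 points, against −0.22 over all tested regions and −1.27 in other distal regions, and 224 were higher in diabetic BMDM. After LPS+IFN-γ, 0 of 578 were called (0% of all) and 8 (1.38%) had an unadjusted p under 0.05, against 3.86% of all. The median of the 578 was 0.13, against −1.83 over all tested regions and −4.21 in other distal regions. The sign of the median of the 578 was not stable: it was −0.35 without library 5 of the control LPS+IFN-γ group and 1.07 with the log2 number of peaks as a covariate. Since the unstimulated diabetic libraries enter both this comparison and the diabetic stimulation comparison, the lower unstimulated values and the upward lean after LPS+IFN-γ are not separate observations.

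At Lgals3 the upstream region (chr14:47356145-47358788) read 79.4, 69.6, 80.1, 75.8 and 79.3 in unstimulated diabetic BMDM. Unstimulated controls read 90.6, 88.6, 90.9, 92.5 and 90.0 in 5 libraries and had no peak in library 4. Without that library the region was called lower in diabetic BMDM (−13.7 points, limma adjusted p = 0.0293); with it, it was not. The region in a coding exon of the same gene, 5544 bp downstream of the start site, showed no such gap: 96.7, 94.0, 95.8, 88.5 and 91.0 in unstimulated diabetic BMDM, and 86.2, 93.4 and 94.2 (lowest, median, highest) in controls. The upstream region was singled out after its values were seen.

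**Figure D4:**
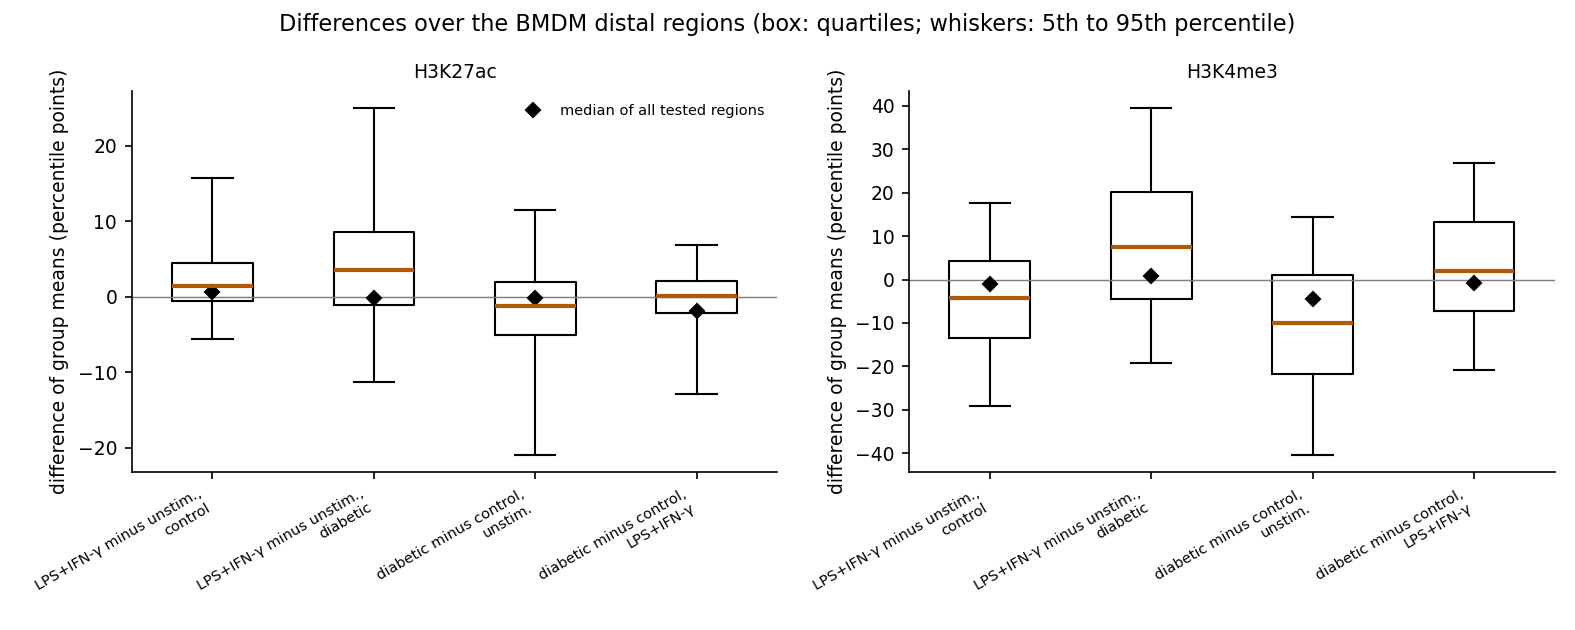
Differences of group means in percentile points over the BMDM distal regions for 4 comparisons, H3K27ac (left, 578 regions) and H3K4me3 (right, 570 regions); box quartiles with the median, whiskers the central range named in the title, diamonds the median of all tested regions. The H3K27ac box for LPS+IFN-γ in diabetic BMDM is centered at 3.60 points, and the H3K4me3 boxes are wider, with medians from −9.96 to 7.43.

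H3K4me3 did not enter the rule and was read in libraries of its own. In BMDM, 434 of 578 (75.1%) had a deposited H3K4me3 peak in at least 12 of 23 lists, against 41.0% of other distal, 39.5% of HSC distal and 96.7% of shared regions. A peak among the 30000 strongest was found in as many lists at 74 (12.8%), against 7.43% of other distal, 1.79% of HSC distal and 67.4% of shared regions. Such overlap also depends on width. Other distal regions were narrower (557 bp at the median, against 1839 bp), while HSC distal regions were close in width, as given above. In HSC, 52 (9.0%) had a deposited peak in at least 7 of 12 lists, below the 12.3% of other distal regions. In 93 regions (16.1%) none of the 35 lists had a strong H3K4me3 peak.

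The share of the 578 regions with a deposited H3K4me3 peak was 75.5% ± 10.8 in unstimulated control BMDM and 56.7% ± 15.9 (n = 5) in unstimulated diabetic BMDM. After LPS+IFN-γ it was 68.3% ± 16.9 in control and 67.6% ± 25.8 in diabetic BMDM, from 26.6% to 92.9%, and in HSC 17.2% ± 13.1 in control and 26.3% ± 17.8 in diabetic mice (n = 6 each). The spread within groups was wide, and all 4 BMDM groups overlapped. The number of peaks differed as well, with 13730 to 145750 per HSC list against 66146 to 212718 per list of unstimulated BMDM. With the 30000 strongest peaks, which every list but the shortest could supply, means were 21.5% and 19.9% in unstimulated control and diabetic BMDM, 19.0% and 28.3% after LPS+IFN-γ, and 6.81% and 5.45% in HSC.

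**Figure D5:**
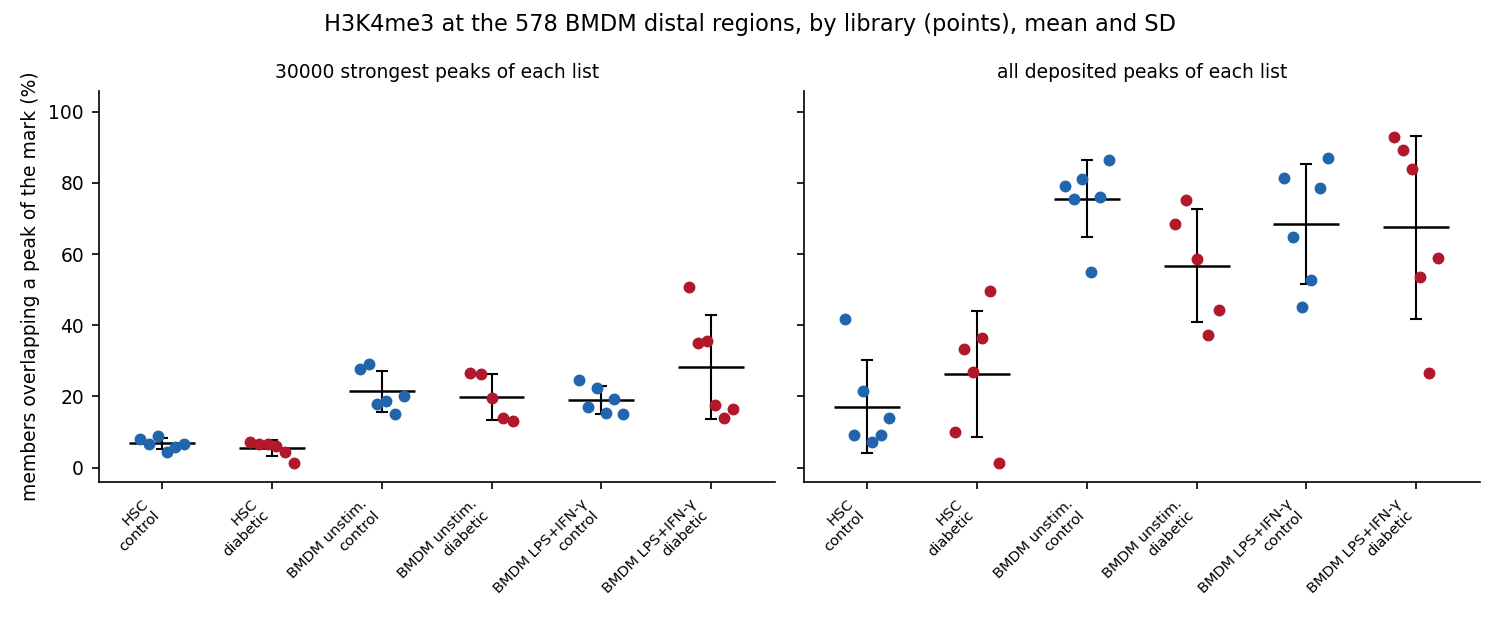
Percent of the 578 BMDM distal regions that overlap an H3K4me3 peak in each library (points; blue control, red diabetic), with mean and SD per group, for the 30000 strongest peaks (left) and all deposited peaks (right). With the strongest peaks no HSC library is above 9.0% and no BMDM library below 13.0%; with all peaks the groups spread widely, and diabetic HSC libraries reach 49.7%.

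H3K4me3 was then compared between 11 unstimulated BMDM and 12 HSC libraries, with the disease groups weighted equally. Of the 578 regions, 570 were held by at least 2 H3K4me3 lists, and of these 261 were called higher in BMDM and 0 lower (limma, Benjamini-Hochberg over 101226 regions). Over all tested regions, 16.4% were called higher and 16.6% in either direction. The share was 45.8% of the BMDM distal regions, 17.6% of other distal, 21.7% of shared and 6.74% of HSC distal regions. Width enters here too, since the strongest peak over a region is used and other distal regions were narrower. The median difference was 31.8 points against 12.7 over all tested regions, and 537 of the 570 were higher in BMDM. Since BMDM lists were longer than HSC lists, the comparison was repeated with the log2 number of peaks as a covariate, which left 84 higher and 1 lower of 570, where 2.44% of all tested regions were called higher. With the 3 control libraries named above left out of the fit, 211 of 570 and 10196 of all tested regions were called higher.

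The strictest form, Fisher's exact test on presence among the 30000 strongest peaks, called 5 regions higher in BMDM and 0 lower; over all tested regions it called 47 higher (0.0464%) and 2 lower. These lay near Klc4 (a kinesin light chain; strong peak in 11 of 11 BMDM and 0 of 12 HSC libraries, adjusted p = 0.0187 by Fisher's exact test), St3gal5 and Lrp1 (11 of 11 and 1 of 12), and Dppa3 (an oocyte factor) and Pitpnc1 (a lipid transfer protein; 10 of 11 and 0 of 12), the last 4 with adjusted p = 0.0199 by the same exact test. Of these, the St3gal5 region is mostly repeated sequence (83.2% of runs, as given above) and the Dppa3 region is so in part (26.6%), while Klc4, Lrp1 and Pitpnc1 had no repeated run.

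By limma, the lowest adjusted p was at the Ctss region, 3168 bp downstream of the start site and inside an intron. Its H3K4me3 percentiles were 84.4, 78.4, 83.3, 80.6 and 0 in unstimulated diabetic BMDM, and 74.7, 79.9 and 87.4 (lowest, median, highest) in controls, and none of the 12 HSC libraries had a peak. All but 1 BMDM library were thus above every HSC library, with a difference of 72.8 ± 6.06 points (limma adjusted p = 1.99e-09). As given above, 29.6% of the runs in this region occur more than once in the genome. Next came Map4k3 (a kinase of nutrient signaling; 67.7 ± 7.22), Mtss1 (a membrane-shaping protein; 79.2 ± 8.51), the Wnt2b region in an exon of Cttnbp2nl (74.2 ± 8.0) and Dppa3 (71.9 ± 8.46). At Mtss1, values were 87.0, 87.4, 74.0, 71.4 and 73.9 in unstimulated diabetic BMDM, and no HSC library had a peak.

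Regions of the gene groups differed in H3K4me3. Sash1 (71.8 ± 8.49 points), the exonic Lgals3 region (67.1 ± 8.78), the Lrp1 region shown above (65.4 ± 8.81) and the Atf3 region (49.4 ± 12.8, limma adjusted p = 0.00828) were called higher in BMDM. The Runx1 region at chr16:92613210-92616419 (28.7 ± 12.5, limma adjusted p = 0.110), the Csf1r region (21.9 ± 10.1, limma adjusted p = 0.135) and the Gpnmb region (15.6 ± 14.2, limma adjusted p = 0.465) were not called, with standard errors so wide that a difference of the given size is not excluded. At Zeb2 the difference was −1.54 ± 10.7, with an H3K4me3 peak in 4 of 23 BMDM and 1 of 12 HSC lists, although its H3K27ac percentile was 92.2 at the median. At Lrp1 all 23 BMDM lists had a strong H3K4me3 peak; the 74 regions with strong H3K4me3 in 12 or more BMDM lists lay 9738 bp from the nearest start site at the median and had 55% GC, and the 93 without any strong peak lay at 16596 bp and had 49.6%.

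Neither stimulation nor diabetes gave an H3K4me3 call among the 570 regions with all libraries in the fit. A lack of calls does not show that H3K4me3 was unchanged. By limma, 0 were called for stimulation in control BMDM (0% of all tested regions were) and 0 for stimulation in diabetic BMDM (0.00889% of all). For disease it was 0 in unstimulated BMDM (0.00889% of all) and 0 after LPS+IFN-γ (0.00296% of all). An unadjusted p under 0.05 was found for stimulation at 24 regions in control BMDM (4.21%, against 3.35% of all) and at 65 in diabetic BMDM (11.4%, against 5.97%). For disease it was found at 49 in unstimulated BMDM (8.60%, against 6.91%) and at 24 after LPS+IFN-γ (4.21%, against 4.27%). Fisher's exact test called none in these 4 either, but its lowest p was again 0.00216 and could not pass. Median differences were −4.26 points for stimulation in control and 7.43 in diabetic BMDM, and −9.96 for disease in unstimulated and 1.95 in stimulated BMDM, against −1.09, 0.75, −4.58 and −0.85 over all tested regions. In the same order they were −1.78, 2.14, −6.72 and −1.18 in other distal regions and −1.81, 5.52, −9.94 and −2.24 in HSC distal regions. With the log2 number of peaks as a covariate the medians of the 570 regions were −2.04 and 4.09 for stimulation and 0.68 and 5.85 for disease, so that for disease in unstimulated BMDM did not keep its sign.

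Single regions crossed the threshold when libraries were left out, and are named for that reason after their values were seen. Near Wdr7, the 6 unstimulated control libraries had H3K4me3 percentiles from 49.8 to 66.9. There was no peak in the 5 unstimulated diabetic libraries or in 5 of the 6 stimulated control libraries. Library 5 of the stimulated controls was the one with 63.2. It was left out for its number only, as the doubt above came from H3K27ac. The region had a listed H3K4me3 peak in 11 BMDM libraries, so those not named so far were stimulated diabetic libraries. In diabetic BMDM the peak was thus listed only after stimulation, the reverse of the direction in controls. No BMDM library had it among its 30000 strongest. Both calls given next rest on the same unstimulated control libraries. Without the 3 control libraries the region was called lower after stimulation in control BMDM (−60.7 points, limma adjusted p = 0.0178) and lower in unstimulated diabetic BMDM (−60.7, limma adjusted p = 0.0145); over all tested regions 7 higher and 20 lower were then called for the former and 1 higher and 43 lower for the latter. Near Kat6b, a histone acetyltransferase, 4 stimulated diabetic libraries stood at 65.8, 72.6, 77.5 and 73.9, while 2 of that group and all 12 control BMDM libraries had no peak; without library 5 of that group it was called higher in diabetic BMDM (58.0 points, limma adjusted p = 0.0139). At this level a percentile of 0 against one as at these libraries is the absence or presence of a listed peak.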

How the data were processed

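H3K27ac and H3K4me3 ChIP-seq peak lists of 70 of 106 samples were analyzed; the 36 inputs had no list of their own used here. Submitters' processing notes name Trim Galore 0.3.3, cutadapt 1.8, FastQC 0.11.3, Bowtie2 2.2.6, MACS2 2.2.7.1, Picard 2.18.14 and 2.19.2 and bedtools 2.19.1, with GRCm38 and mm10. Each deposited list, made by the authors per library, holds for every peak a score, a fold enrichment over background, a −log10 p and a −log10 q. None are counts, so depth is unknown, no counting interval can be given and ranks are compared only inside a list. Rows of 1 interval were collapsed to their highest −log10 p.

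The study's methods state no test for these lists. Percentiles were fitted with limma 3.58.1 (R 4.3.3), two-sided, as group means without covariates. For H3K27ac the fit held the 4 BMDM groups. For H3K4me3 the 4 BMDM groups and the HSC groups were fitted together. The H3K4me3 tests of stimulation, disease and cell type thus shared the same estimate of spread, and that of cell type compared unstimulated BMDM with HSC. Regions held by at least 2 lists were tested, and a call is a Benjamini-Hochberg adjusted p under 0.05 over all of them. Replicates carry only numbers, so p-values measure the spread between these samples. Fits were also tried on simulated data with normal spread, unlike real percentiles, where many regions have no peak. The H3K4me3 cell type fit missed most of the changes put in. The H3K27ac stimulation fit found most of them, in regions chosen for small spread, so it does not speak for others. For either mark, a region not called is not shown to be unchanged. Location, nearest start sites and sequences come from the GRCm38 annotation and genome (Python 3.11.15).

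The regions and gene lists were chosen with earlier results of these data known. Regions named are the 10 highest held by 23 BMDM and 0 HSC lists, the highest per listed gene, the 10 genes with most regions and up to 5 called regions per comparison and direction with the lowest adjusted p; exceptions are stated, and some items are not reported here. Alternatives were peaks ranked by fold, a −log10 q minimum of 5, no filter on lists, a log2 peak number covariate, a replicate block, Fisher's exact test, other forms of the region rule and leaving out each library; limma's trend, leaving out 3 control libraries and leaving out the 2 numbered 5 were added after seeing the data, as was the search for copies.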

Additional observations from a re-analysis of the deposited data

Results flagged for a closer look

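Over 34 sets of values by library (share of the 578 regions with a peak, and their median percentile, per group), Dixon's test marked the highest or lowest library where its distance to the next, divided by the range of the set, passed the critical value; chance flags about 1 in 20 such sets, and 8 were flagged.

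For H3K27ac, library 4 of unstimulated control BMDM had a median percentile of 84.1 over the regions, while the other 5 lay between 88.5 and 90.4. Counting all deposited peaks, library 5 of diabetic LPS+IFN-γ BMDM covered 95.3% of the regions (the others 98.6% or more), and library 3 of control LPS+IFN-γ BMDM 97.9% (the others 99.7% or more). In control HSC, library 4 held a strong peak at 7.96% of the regions, against 2.08% to 4.15% in the others, and library 5 had a median percentile of 0, against 53.9 to 57.2. A median percentile drops to 0 once most of the regions have no listed peak, so its gap overstates the difference. Library 5 of control HSC had a listed peak at 43.1% of the regions, and library 1 at 55.7%.

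For H3K4me3, library 5 of diabetic LPS+IFN-γ BMDM and library 3 of control LPS+IFN-γ BMDM each had a median percentile of 0, where the next lowest were 61.8 and 60.2. The same drop to 0 applies here. The control library 3 had a listed peak at 45.2% of the regions, against 52.8% in library 4 of its group. The diabetic library 5 had one at 26.6%, against 53.6% in library 4 of its group. Library 4 of unstimulated control BMDM held a deposited H3K4me3 peak at 55.0% of the regions, against 75.4% to 86.3% in the others.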

How the results depend on the processing

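Over 10 comparisons, 223 numbers of called regions were recomputed under alternatives, and 206 stayed within 1.5 times the value given. In every comparison but that of H3K4me3 by cell type the value given was 0. A 0 that stayed 0 counted as unchanged, so the 206 is no measure of stability. The H3K4me3 cell type count of 261 fell to 85 with the log2 number of peaks as a covariate and to 5 by Fisher's exact test on the strongest peaks, and ran from 225 to 282 leaving out each library; the other alternatives gave 205 to 253. Counts of 0 became 1 in these cases: H3K27ac stimulation in diabetic BMDM with the peak number covariate, without the 3 control libraries and without the 2 numbered 5; H3K27ac stimulation in control BMDM without the 3; and H3K4me3 stimulation in control BMDM and disease in unstimulated BMDM without the 3 and without the 2. Leaving out each library gave 0 to 1 for H3K27ac stimulation in diabetic BMDM and disease in unstimulated BMDM, and for H3K4me3 stimulation in control BMDM and disease in both states; it gave 0 throughout for the others. The cause was not tested. The number of regions, 578, was 957 when all deposited peaks counted (46 shared), 177 when a peak had to cover at least 50% of the region (91 shared), 391 with the 20000 strongest peaks (194 shared) and 463 to 622 leaving out each list, so membership rests on the ranking. A replicate block left 0 calls among the regions and took the calls over all regions for H3K27ac stimulation in diabetic BMDM from 257 to 1. Same-numbered libraries were not treated as pairs: their H3K27ac deviations correlated from −0.16 (library 5) to 0.44 in control BMDM, where 3 of 6 correlated best with their own number, and from 0.01 to 0.16 in diabetic BMDM, where 4 of 5 did; 4 of 5 diabetic H3K4me3 pairs were above 0.1. For disease and cell type the block could not be fitted, as numbers do not link those animals.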
